A study of Mus musculus with 18 samples.

Results

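Hyaluronan synthesis and turnover is described here through 7 mouse genes, the synthases Has1, Has2 and Has3, the precursor enzyme Ugdh, the hyaluronidases Hyal1 and Hyal2, and the receptor Cd44. They were found by symbol among the 55536 genes of the deposited count table. Has2 was chosen by its measured fall and rebound after tumour necrosis factor (TNFα) in these same libraries, so its TNFα response is a description with no test. The other 6 members were picked for their function with earlier results known. RNA was sequenced from 3 lines of immortalised mouse embryonic fibroblasts, a p65 KO line (no functional Rela, a subunit of the transcription factor NF-κB), an IKK2 KO line (no functional Ikbkb, a kinase upstream of NF-κB) and a WT line. Each line was untreated (0 min) or given 10 ng/ml TNFα for 45 or 90 min, which made 9 groups of 2 libraries, called a and b. All cells were grown in DMEM with 10% FBS. Each genotype was 1 line, so genotype and line cannot be told apart. Nothing in the labels places the 2 libraries of a group in separate cultures, and the p-values therefore measure only the spread between these libraries, which may be technical.

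Hyaluronan is a long unbranched sugar chain of the matrix around fibroblasts, built at the plasma membrane by the synthases from UDP-glucuronic acid and UDP-N-acetylglucosamine. Has2 is the main synthase of many fibroblasts and is required in the mouse embryo for heart development. At the cell surface the chain binds Cd44, Hyal2 cuts it into large pieces, and Hyal1 degrades the pieces in lysosomes. TNFα is an inflammatory cytokine that signals through IKK2 to NF-κB and, in parallel, through MAP kinases.

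Library totals lay between 16.7 and 23.5 M counts, with 20146 to 21848 genes counted in each. Rela ranged from 5.25 to 6.55 CPM (counts scaled to 1 common library total) over the 6 p65 KO libraries, from 67.0 to 106 CPM over the IKK2 KO libraries and from 63.2 to 111 CPM over the WT libraries. Ikbkb ranged from 40.2 to 44.7 CPM in the IKK2 KO line, 42.7 to 46.1 CPM in the p65 KO line and 59.3 to 64.1 CPM in the WT line, so its RNA level does not check the IKK2 KO label. The feedback inhibitor Nfkbia stood at 54.2 and 55.5 CPM at 45 min in the p65 KO line, against 33.1 and 33.5 CPM at 0 min. It stood at 183 and 189 CPM in the IKK2 KO line, against 40.8 and 42.0 CPM, and at 368 and 377 CPM in the WT line, against 15.1 and 15.6 CPM. Of 14 fibroblast markers, 11 in the p65 KO line, 12 in the IKK2 KO line and 11 in the WT line reached a mean of 1 CPM; Lum and Postn did not in any line, and the defining marker Thy1 stood at 0 or near 0 in the p65 KO and WT lines. The summed fibroblast markers ran from 5070 to 5190 CPM in p65 KO libraries and from 11300 to 11700 CPM in both IKK2 KO and WT libraries, while the summed epithelial, endothelial, myeloid and muscle lists stayed under 3.5 CPM in every library. The summed list of 5 chondrocyte markers ran from 25.2 to 28.9 CPM in p65 KO, 49.7 to 80.4 CPM in IKK2 KO and 81.9 to 119 CPM in WT libraries. Of these, Sox9 reached a mean of 1 CPM in all lines and Acan only in the p65 KO line, while Col9a1 and Matn1 did not in any. The cartilage collagen Col2a1 averaged 81.0 CPM in untreated WT cells and under 1 CPM in both KO lines. The part of these differences in the results below was not tested.

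Upstream sequence of RefSeq (GRCm38.p6) was held for 5 of the 7 members, and Has2 and Has3 were unmatched. It is shown for the members other than Has2 whose levels the results turn on, Ugdh and Cd44 after TNFα and Has1 between lines, as the bases directly upstream of the annotated gene. The windows are chr5:65435950-65436092 for Ugdh (143 bases), chr2:102901666-102901915 for Cd44 (250 bases) and chr17:17855206-17855438 for Has1 (233 bases), each on the minus strand and written 5′ to 3′. Capitals mark a motif match.
Ugdh: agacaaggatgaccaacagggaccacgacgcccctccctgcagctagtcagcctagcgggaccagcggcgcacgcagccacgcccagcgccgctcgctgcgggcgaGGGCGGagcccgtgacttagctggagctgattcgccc
Cd44: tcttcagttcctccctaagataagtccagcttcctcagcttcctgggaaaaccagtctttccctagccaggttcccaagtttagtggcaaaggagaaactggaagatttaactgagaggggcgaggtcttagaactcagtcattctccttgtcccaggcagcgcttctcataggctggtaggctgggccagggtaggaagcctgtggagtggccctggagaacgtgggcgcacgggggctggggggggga
Has1: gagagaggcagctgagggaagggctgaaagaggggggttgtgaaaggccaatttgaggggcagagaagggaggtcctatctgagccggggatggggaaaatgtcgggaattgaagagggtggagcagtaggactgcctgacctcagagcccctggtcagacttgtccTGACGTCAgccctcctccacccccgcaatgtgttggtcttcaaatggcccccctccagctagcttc
Both strands were searched for the κB consensus, the cyclic AMP response element (TGACGTCA), the AP-1 site (TGANTCA), the GC box (GGGCGG) and the TATA box (TATAAA). The Ugdh window held 1 GC box, with its first base at −144 from the RefSeq start, and a GC box stood in the same length of 15.5% of 27025 promoters. The Has1 window held 1 cyclic AMP response element at −83, found in 1.37% of promoters over that length. None of these motifs was matched in the Cd44 window. The κB consensus was in none of the 3 windows, and its share over the same lengths was 3.81%, 7.01% and 6.49% of promoters for Ugdh, Cd44 and Has1. A match or its absence describes these letters alone.

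Has2 differed most between the lines at 45 min. In the p65 KO line it had 82.0 and 81.5 CPM at 0 min, 94.7 and 93.5 CPM at 45 min, and 98.7 and 95.7 CPM at 90 min. In the IKK2 KO line it had 50.1 and 52.1 CPM at 0 min, 31.5 and 27.9 CPM at 45 min, and 58.3 and 56.9 CPM at 90 min. In the WT line it had 20.4 and 20.0 CPM at 0 min, 2.97 and 3.62 CPM at 45 min, and 36.6 and 39.9 CPM at 90 min. The p65 KO libraries were thus high throughout, the WT libraries at 45 min were the lowest of the 18, and within each line the 3 times did not overlap. The WT libraries at 45 min held 51 and 73 Has2 counts, so the low point rests on few reads. In bulk cultures, fewer cells that express a gene and less RNA per cell cannot be told apart. Has2, on the minus strand at chr15:56665627-56694539 (GRCm38), shares 182 of its 4237 exon bases with the antisense gene Has2os.

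**Figure D1:**
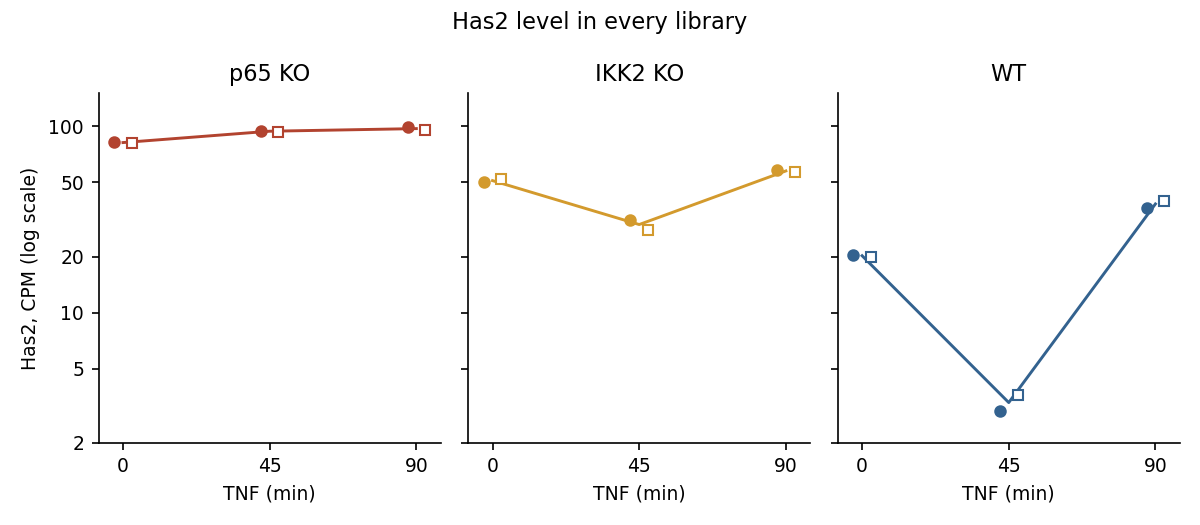
Has2 level (CPM, log scale) against minutes of TNFα in the p65 KO, IKK2 KO and WT lines; filled circles are library a, open squares library b, and lines join the means of 2 libraries. The p65 KO libraries stay between 81.5 and 98.7 CPM, the IKK2 KO line dips to 27.9 CPM and the WT line to 2.97 CPM at 45 min.

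Relative to 0 min, 115% of the Has2 level stood at 45 min in the p65 KO line, 58.1% in the IKK2 KO line and 16.3% in the WT line. The level at 90 min was 1.03-fold that at 45 min in the p65 KO line, 1.94-fold in the IKK2 KO line and 11.6-fold in the WT line. On the log2 scale the change at 45 min was 0.20 ± 0.04 in the p65 KO line, −0.78 ± 0.06 in the IKK2 KO line and −2.60 ± 0.13 in the WT line (± standard error of the edgeR fit, 2 libraries a group, as for all log2 changes below). The change from 45 to 90 min was 0.05 ± 0.04, 0.95 ± 0.06 and 3.53 ± 0.13 in the same lines. At 90 min all lines stood above their untreated level, by 0.25 ± 0.04 in the p65 KO line, 0.17 ± 0.05 in the IKK2 KO line and 0.92 ± 0.06 in the WT line. The WT level at 90 min was therefore an overshoot of 1.89-fold, against 1.19-fold in the p65 KO line and 1.13-fold in the IKK2 KO line.

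As differences of responses, the p65 KO change minus the WT change in Has2 was 2.81 ± 0.14 at 45 min and −3.48 ± 0.14 from 45 to 90 min. The IKK2 KO change minus the WT change was 1.82 ± 0.15 at 45 min and −2.57 ± 0.14 from 45 to 90 min. The gap between lines moved with time. The p65 KO mean was 4.05-fold the WT mean at 0 min, 28.6-fold at 45 min and 2.54-fold at 90 min, and the IKK2 KO mean was 2.53-fold, 9.02-fold and 1.51-fold the WT mean at these times. Ordered from high to low, the group means began with p65 KO at 90 min (97.2 ± 2.16 CPM, SD, n = 2 here and below), 45 min (94.1 ± 0.804 CPM) and 0 min (81.8 ± 0.393 CPM). IKK2 KO at 90 min (57.6 ± 0.999 CPM), IKK2 KO at 0 min (51.1 ± 1.43 CPM), WT at 90 min (38.3 ± 2.30 CPM), IKK2 KO at 45 min (29.7 ± 2.55 CPM), WT at 0 min (20.2 ± 0.294 CPM) and WT at 45 min (3.29 ± 0.457 CPM) followed. No group overlapped its neighbour in this order, and the highest mean was 29.5-fold the lowest.

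Between untreated lines, the Has2 difference was 2.02 ± 0.06 for p65 KO minus WT cells, 1.34 ± 0.06 for IKK2 KO minus WT cells and −0.68 ± 0.05 for IKK2 KO minus p65 KO cells. The fall by which Has2 was chosen is measured from these same libraries, so the differences are given with no test. Most genes differed between the lines: 80.8% of the 16322 genes tested differed at an adjusted p under 0.05 between p65 KO and WT cells, 74.3% between IKK2 KO and WT cells and 72.4% between IKK2 KO and p65 KO cells. Of the other 6 members, 4, 4 and 3 were called in these comparisons by the edgeR quasi-likelihood test, with Has1 among them each time. Has1 passed the filter on low counts only through its high group, so these counts are a description.

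The antisense gene Has2os, a non-coding RNA transcribed from the opposite strand, stood between 0 and 0.743 CPM over the 18 libraries, or 0 to 19 counts. Its counts came to between 0 and 2.54% of the Has2 counts of the same library. Untreated, it held 25 counts in p65 KO and 7 counts in WT cells, a ratio of 3.42 (exact 95% counting interval 1.44 to 9.38, counting error only). The log2 difference ran from 1.09 to 2.65 over fits that left out 1 library. No WT library held more than 7 counts, under the minimum count of 10. Has2os thus passed the filter on low counts only through KO libraries, so no p is given for it. At 0, 45 and 90 min it held 25, 20 and 30 counts in the p65 KO line, 11, 24 and 18 counts in the IKK2 KO line and 7, 1 and 11 counts in the WT line. In the IKK2 KO line the Has2os libraries at 45 min thus lay above those at 0 min, where Has2 lay below. This Has2os change of 1.04 ± 0.54 rests on 11 and 24 counts and is a description. The IKK2 KO change minus the WT change from 45 to 90 min was −3.63 ± 1.62, and −6.07 to −2.66 over fits that left out 1 library. In the WT line, with these few counts, the 90 to 45 min ratio of 10.5 has a counting interval of 1.52 to 450. Its log2 change ran from 2.15 to 5.56 over fits that left out 1 library. The strand setting of the counting is not given in the sources used here, so reads of the shared bases cannot be told apart between Has2 and Has2os.

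Has1, a second synthase, was nearly silent outside the IKK2 KO line. It held 18 and 30 counts at 0 min, 20 and 15 at 45 min and 28 and 31 at 90 min in IKK2 KO libraries, against at most 1 count in any p65 KO library and 0 to 6 counts in WT libraries. The groups do not overlap, and Has1 passed the filter on low counts only through the IKK2 KO libraries. In untreated cells its level was 8.97-fold that of WT in the IKK2 KO line (48 against 7 counts, interval 4.04 to 23.5). The ratio of untreated IKK2 KO to p65 KO cells was 65.5 (48 against 1 count, interval 11.2 to 2640). No p is given for these ratios, since the high IKK2 KO counts decided that Has1 was tested at all. Between p65 KO and WT cells, with 1 and 7 counts, the ratio was 0.137 (interval 0.00304 to 1.07). Both sums are under the minimum count of 10, so no p is given for this ratio either. Its log2 difference ran from −4.74 to −1.66 over fits that left out 1 library. The edgeR call of Has1 in this comparison, counted above, was lost in DESeq2 and with no filter on low counts. Has1 did not pass the test after TNFα in any line.

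Has3, the third synthase, stood between 0.317 and 1.16 CPM in all 18 libraries, or 6 to 20 counts, and passed no test. Its lowest and highest adjusted p over TNFα within lines were 0.10 and 0.98 in edgeR. Its largest change within a line was −1.19 ± 0.52, from 45 to 90 min in the IKK2 KO line. Part of its exons (chr8:106870242-106884566, plus strand) lies opposite exons of Chtf8, so its few counts may include reads of that gene.

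Per kilobase of exon, Has2 made up most of the synthase RNA in all groups. The 3 synthases summed to 19.4, 22.3 and 23.0 CPM per kb at 0, 45 and 90 min in the p65 KO line, 12.4, 7.35 and 14.0 CPM per kb in the IKK2 KO line, and 4.87, 0.927 and 9.18 CPM per kb in the WT line. Has2 gave 99.6% of that sum in the p65 KO line at each time. It gave 96.8%, 95.4% and 97.2% in the IKK2 KO line at 0, 45 and 90 min. In the WT line it gave 97.8 ± 0.566%, 83.7 ± 9.26% and 98.4 ± 0.283% (SD, n = 2), with 77.1% and 90.2% in the libraries at 45 min. The summed synthase level thus followed Has2 in each line, and the lower share in WT cells at 45 min rests on 20 and 12 Has3 counts.

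Ugdh, which oxidises UDP-glucose to the UDP-glucuronic acid that the synthases use, fell and came back by a small amount in the WT line, and its TNFα changes passed no test in either KO line. The p65 KO libraries had 182 and 173 CPM at 0 min, 180 and 178 CPM at 45 min, and 180 and 168 CPM at 90 min. The IKK2 KO libraries had 174 and 164, 168 and 172, and 169 and 167 CPM at these times, and the WT libraries 195 and 190, 149 and 152, and 202 and 198 CPM. The WT libraries at 45 min lay below all other 16 libraries. In the KO lines its changes lay between −0.04 and 0.02. Ugdh fell by 0.35 ± 0.03 at 45 min in WT cells (log2; edgeR adjusted p = 1.9e-11) and rose by 0.40 ± 0.03 from 45 to 90 min (edgeR adjusted p = 5.7e-13), ending 0.05 ± 0.03 from its untreated level (edgeR adjusted p = 0.43). Of the 6 members other than Has2, it was the 1 called at 45 min in the WT line, where 12.2% of all genes tested were called.

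The Ugdh responses of the lines differed. The p65 KO change minus the WT change was 0.37 ± 0.05 at 45 min (edgeR adjusted p = 7.1e-08) and −0.45 ± 0.05 from 45 to 90 min (edgeR adjusted p = 6.4e-10). The IKK2 KO change minus the WT change was 0.36 ± 0.05 (edgeR adjusted p = 4.6e-07) and −0.42 ± 0.05 (edgeR adjusted p = 1.2e-08). Untreated Ugdh was lower by −0.12 ± 0.03 in p65 KO than in WT cells (edgeR adjusted p = 0.00073, and 0.06 without p65 KO library b at 0 min) and by −0.19 ± 0.03 in IKK2 KO than in WT cells (edgeR adjusted p = 2.5e-06). Ugdh shares 158 exon bases with Gm43552 on the same strand, whose reads cannot be told apart there.

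**Figure D2:**
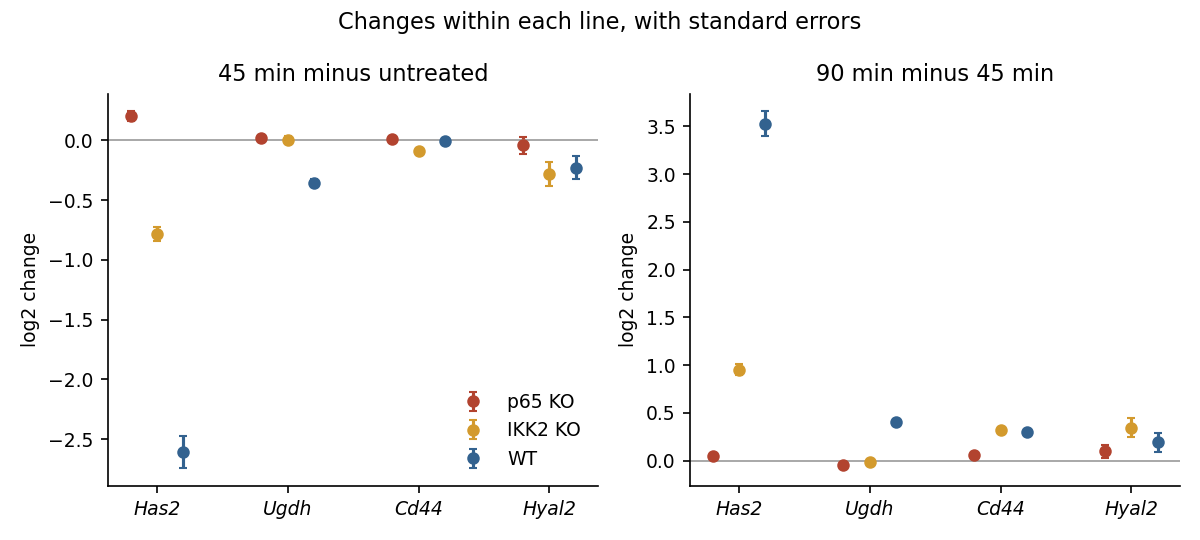
Log2 change of Has2, Ugdh, Cd44 and Hyal2 at 45 min relative to untreated cells (left) and at 90 min relative to 45 min (right), in the p65 KO, IKK2 KO and WT lines, with bars of 1 standard error from the edgeR fit. The WT change of Has2 runs from −2.60 at 45 min to 3.53 from 45 to 90 min, with Ugdh moving the same way by −0.35 and 0.40, while Cd44 changes mainly after 45 min.

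Cd44, the main hyaluronan receptor of fibroblasts, was the most abundant member and rose late. In the p65 KO line it had 571 and 569 CPM at 0 min, 579 and 567 CPM at 45 min, and 606 and 590 CPM at 90 min. In the IKK2 KO line it had 395 and 388, 377 and 358, and 455 and 464 CPM, and in the WT line 585 and 577, 572 and 583, and 713 and 707 CPM at the same times. Both libraries at 90 min lay above those at 0 and 45 min in all lines. At 90 min relative to 0 min Cd44 rose by 0.23 ± 0.03 in the IKK2 KO line (edgeR adjusted p = 2.1e-08) and by 0.29 ± 0.03 in the WT line (edgeR adjusted p = 2.5e-12). The p65 KO change was 0.07 ± 0.03 (edgeR adjusted p = 0.095).

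The Cd44 response of the p65 KO line minus that of the WT line was −0.22 ± 0.04 at 90 min (edgeR adjusted p = 2.2e-05) and −0.24 ± 0.04 from 45 to 90 min (edgeR adjusted p = 4.5e-06). For the IKK2 KO line the difference from WT was −0.06 ± 0.04 at 90 min and did not pass (edgeR adjusted p = 0.60). Cd44 fell by 0.09 ± 0.03 at 45 min in the IKK2 KO line (edgeR adjusted p = 0.025), a call lost in DESeq2 (adjusted p = 0.087), with only the libraries compared (edgeR adjusted p = 0.1) and in 7 of the 18 fits that left out 1 library. These were the fits without p65 KO library a or b at 45 or 90 min (edgeR adjusted p = 0.067 to 0.072), IKK2 KO library a or b at 0 min (0.21 and 0.073) or IKK2 KO library b at 45 min (0.35). The WT change at 45 min was −0.01 ± 0.03 (edgeR adjusted p = 0.91). Untreated Cd44 was lower in the IKK2 KO line, by −0.57 ± 0.03 against WT (edgeR adjusted p = 6.7e-23) and by −0.54 ± 0.03 against p65 KO cells (edgeR adjusted p = 3.7e-22), and the p65 KO to WT difference of −0.03 ± 0.03 did not pass (edgeR adjusted p = 0.31).

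Hyal2, the cell-surface hyaluronidase, was higher in the p65 KO line. It ranged from 20.8 to 24.9 CPM over the p65 KO libraries, 11.7 to 15.5 CPM over the IKK2 KO libraries and 12.0 to 15.1 CPM over the WT libraries, so the p65 KO libraries lay above all others. In untreated cells it was higher by 0.68 ± 0.08 in p65 KO than in WT cells (edgeR adjusted p = 2.2e-10) and lower by −0.63 ± 0.09 in IKK2 KO than in p65 KO cells (edgeR adjusted p = 7e-09). The IKK2 KO to WT difference was 0.05 ± 0.09 (edgeR adjusted p = 0.67). After TNFα its only call was a rise of 0.34 ± 0.10 from 45 to 90 min in the IKK2 KO line (edgeR adjusted p = 0.0098), which did not pass in DESeq2 (adjusted p = 0.10) or without IKK2 KO library a at 45 min (edgeR adjusted p = 0.13) or library b at 90 min (edgeR adjusted p = 0.062).

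Hyal1, the lysosomal hyaluronidase, was scarce and highest in the WT line. It ranged from 0.430 to 0.831 CPM in p65 KO libraries, 0.433 to 0.827 CPM in IKK2 KO libraries and 1.09 to 2.10 CPM in WT libraries, without overlap between the WT libraries and the others. Untreated, it was lower by −1.06 ± 0.28 in p65 KO than in WT cells (36 against 72 counts, edgeR adjusted p = 0.00057) and by −1.77 ± 0.38 in IKK2 KO than in WT cells (16 against 72 counts, edgeR adjusted p = 1.2e-05). No change of Hyal1 after TNFα passed the test. Hyal1 (chr9:107576927-107581710, plus strand) shares 2079 of its 3777 exon bases with Naa80 and Hyal3 on the same strand, so its counts cannot be told apart from theirs in those bases.

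**Figure D3:**
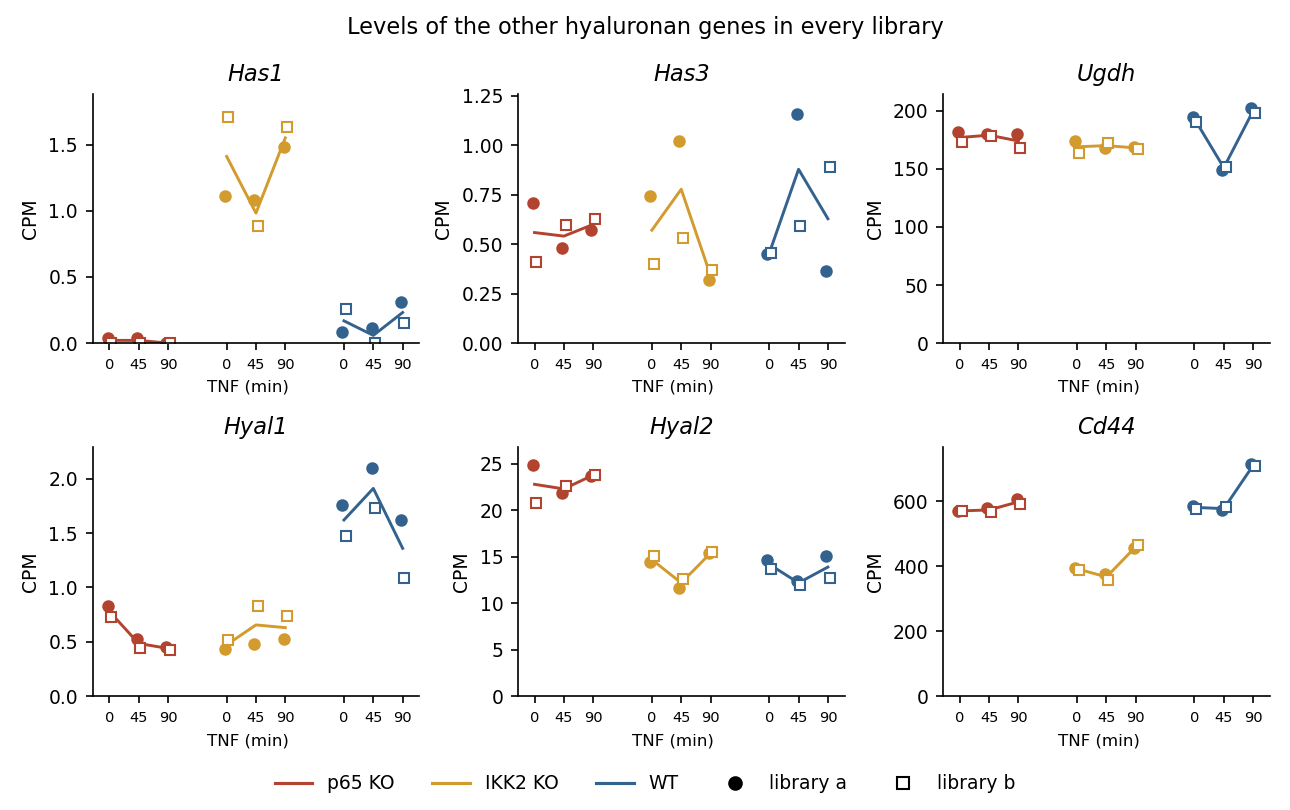
Levels (CPM) of Has1, Has3, Ugdh, Hyal1, Hyal2 and Cd44 at 0, 45 and 90 min of TNFα in the p65 KO, IKK2 KO and WT lines; circles are library a, squares library b, and lines join the means of 2 libraries. Has1 is seen mainly in the IKK2 KO line (0.886 to 1.71 CPM), Hyal2 is highest in the p65 KO line (20.8 to 24.9 CPM), and Ugdh dips in WT cells at 45 min (149 and 152 CPM).

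Over the 6 members other than Has2, the count of calls after TNFα was small and is read against all genes. At 45 min relative to 0 min, 0 members were called in the p65 KO line (1.66% of all genes), 1 in the IKK2 KO line (8.76%) and 1 in the WT line (12.2%). At 90 min relative to 0 min these were 0 (6.48%), 1 (4.48%) and 1 (9.32%), and from 45 to 90 min 0 (2.73%), 2 (15.7%) and 2 (14.3%). DESeq2 also called 0 members in the p65 KO line at each step, and at an unadjusted edgeR p under 0.05 the p65 KO counts were 0 at 45 min, 2 at 90 min (Cd44 and Hyal1) and 1 from 45 to 90 min (Cd44). With only the libraries compared, edgeR called 1 member at 90 min in the p65 KO line. Differences of response between the p65 KO and WT lines were called for 1 member at 45 min, 1 at 90 min and 2 from 45 to 90 min (7.08%, 5.39% and 8.12% of all genes), and between the IKK2 KO and WT lines for 1, 0 and 1 member (4.86%, 2.35% and 6.77%). The count of 0 there was also 0 in DESeq2 and at an unadjusted edgeR p under 0.05. The members called after TNFα were Ugdh, Cd44 and Hyal2.

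Around the members, 57 genes of 5 lists (sugar precursor enzymes, other breakdown genes, other receptors, hyaluronan-binding matrix proteins and Cd44 partners) were read, of which 37 were tested. At 45 min, 0 rose and 2 fell in the p65 KO line (1.17% and 0.49% of all genes in these directions), 2 rose and 1 fell in the IKK2 KO line (3.33% and 5.43%), and 6 rose and 1 fell in the WT line (5.73% and 6.45%). The 6 that rose in WT cells were Uap1, Hk2, Cemip, Tlr2, Ptx3 and Vcan, and Cemip2 fell. In the IKK2 KO line Tlr2 and Cemip rose and Hk2 fell, and in the p65 KO line Vcan and Spp1 fell. The Spp1 fall of 0.14 ± 0.04 (edgeR adjusted p = 0.048) was lost in DESeq2 (adjusted p = 0.065) and in 11 fits that left out 1 library, with edgeR adjusted p of 0.53 without p65 KO library a at 0 min, 0.43 and 0.086 without p65 KO library a or b at 45 min, and 0.053 to 0.062 without a p65 KO, IKK2 KO or WT library at 90 min or an IKK2 KO library at 0 min. At 90 min relative to 0 min, 3 rose and 0 fell in the p65 KO line (4.06% and 2.42%), 4 rose and 0 fell in the IKK2 KO line (3.36% and 1.12%), and 9 rose and 2 fell in the WT line (5.81% and 3.51%). Of the 3 in the p65 KO line, Hk2, Gnpnat1 and Pgm3, the calls of Gnpnat1 and Pgm3 were lost in DESeq2 (adjusted p = 0.49 and 0.45) and without any 1 of the 4 p65 KO libraries compared (edgeR adjusted p = 0.058 to 0.36 for Gnpnat1 and 0.051 to 0.38 for Pgm3). In the WT line the rises of Spp1, Ezr and Adam17 and the fall of Cemip2 were lost in DESeq2 (adjusted p = 0.063, 0.23, 0.46 and 0.31). The median change of the 37 at 45 min in the WT line was 0.07, beside 0.01 over all genes.

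Among the 11 sugar precursor enzymes, 0 rose and 0 fell at 45 min in the p65 KO line, 0 rose and 1 fell in the IKK2 KO line, and 2 rose and 0 fell in the WT line. Uap1 makes UDP-N-acetylglucosamine, the other substrate of the synthases. It had 46.9 and 49.4 CPM at 0 min, 49.8 and 48.6 CPM at 45 min, and 52.3 and 53.3 CPM at 90 min in the p65 KO line, and 39.2 and 42.7, 43.7 and 42.8, and 53.4 and 52.5 CPM in the IKK2 KO line. In the WT line it had 47.5 and 45.3, 100 and 96.3, and 106 and 107 CPM, so Uap1 was up when Has2 and Ugdh were at their lowest. Uap1 rose by 1.08 ± 0.04 at 45 min in WT cells (edgeR adjusted p = 4.1e-24), and the difference from WT was −1.04 ± 0.06 for the p65 KO line (edgeR adjusted p = 3.3e-17). At 90 min the IKK2 KO change minus the WT change was −0.83 ± 0.07 (edgeR adjusted p = 1.9e-12). The hexokinase Hk2 averaged 142, 147 and 164 CPM at 0, 45 and 90 min in the p65 KO line, 118, 103 and 142 CPM in the IKK2 KO line, and 65.9, 80.7 and 99.2 CPM in the WT line. Its change at 45 min was 0.05 ± 0.03 in the p65 KO line (edgeR adjusted p = 0.62), −0.20 ± 0.04 in the IKK2 KO line (edgeR adjusted p = 0.00036, and 0.12 without IKK2 KO library a at 0 min) and 0.29 ± 0.04 in the WT line (edgeR adjusted p = 8.1e-07). Untreated, Gfpt1, which commits sugar to the hexosamine pathway, was higher by 1.10 ± 0.03 in p65 KO than in WT cells (edgeR adjusted p = 1.9e-29) and by 0.71 ± 0.04 in IKK2 KO than in WT cells (edgeR adjusted p = 5.2e-21).

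Of 10 other breakdown genes 5 were tested. Cemip, a hyaluronan-depolymerising protein, averaged 3.40, 3.61 and 3.64 CPM at 0, 45 and 90 min in the p65 KO line, 16.3, 19.5 and 16.0 CPM in the IKK2 KO line, and 110, 135 and 81.1 CPM in the WT line. The WT line was thus highest at all times. In WT cells Cemip rose by 0.30 ± 0.04 at 45 min (edgeR adjusted p = 1.7e-08) and then fell by 0.73 ± 0.04 from 45 to 90 min (edgeR adjusted p = 2e-19), the opposite order to Has2. Untreated Cemip was lower by −5.01 ± 0.11 in p65 KO than in WT cells (edgeR adjusted p = 3.1e-42) and by −2.75 ± 0.07 in IKK2 KO than in WT cells (edgeR adjusted p = 3.1e-36). Cemip rose by 0.26 ± 0.08 at 45 min in the IKK2 KO line (edgeR adjusted p = 0.032), a call lost in DESeq2 (adjusted p = 0.14) and without IKK2 KO library b at 0 min (edgeR adjusted p = 0.4) or libraries a or b at 45 min (0.065 and 0.2). Cemip2, described in the mouse as a cell-surface hyaluronidase, fell by 0.28 ± 0.05 at 45 min in the WT line (edgeR adjusted p = 7.2e-05), and the p65 KO response minus that of WT was 0.32 ± 0.07 (edgeR adjusted p = 0.0011).

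Of 8 other receptors 5 were tested. Tlr2, a receptor that hyaluronan fragments can engage, averaged 6.07, 5.41 and 4.77 CPM at 0, 45 and 90 min in the p65 KO line, 7.78, 13.8 and 14.4 CPM in the IKK2 KO line, and 3.89, 37.1 and 41.3 CPM in the WT line. It rose by 0.83 ± 0.12 at 45 min in the IKK2 KO line (edgeR adjusted p = 4.8e-07) and by 3.24 ± 0.12 in the WT line (edgeR adjusted p = 2.6e-28), while the p65 KO change was −0.18 ± 0.13 (edgeR adjusted p = 0.64). The WT response differed from both KO lines, by −3.41 ± 0.18 for the p65 KO line (edgeR adjusted p = 1.9e-19) and −2.40 ± 0.17 for the IKK2 KO line (edgeR adjusted p = 5.6e-15), each as KO minus WT change at 45 min.

 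Of 18 matrix and link proteins 7 were tested. Vcan, a hyaluronan-binding proteoglycan, averaged 615, 564 and 622 CPM in the p65 KO line, 153, 160 and 158 CPM in the IKK2 KO line, and 588, 671 and 665 CPM in the WT line. Vcan fell by 0.12 ± 0.02 at 45 min in the p65 KO line (edgeR adjusted p = 0.0019, and 0.087 without p65 KO library a at 0 min or 0.12 without library b at 45 min) and rose by 0.19 ± 0.03 in the WT line (edgeR adjusted p = 8.3e-08), a difference of −0.31 ± 0.04 (edgeR adjusted p = 4.4e-09). Its untreated level was lower by −1.94 ± 0.03 in IKK2 KO than in WT cells (edgeR adjusted p = 2.8e-41). Ptx3, which cross-links hyaluronan in matrix, rose by 1.28 ± 0.15 at 45 min in WT cells (edgeR adjusted p = 4.1e-09), and Acan, the cartilage proteoglycan, averaged 15.3 CPM in untreated p65 KO cells with 0 counts in every WT library. Of 10 Cd44 partners 9 were tested. Msn, which links Cd44 to actin, averaged 940, 933 and 937 CPM at 0, 45 and 90 min in the p65 KO line, 834, 836 and 894 CPM in the IKK2 KO line, and 946, 940 and 1050 CPM in the WT line. It rose at 90 min by 0.10 ± 0.02 in the IKK2 KO line (edgeR adjusted p = 0.0039, and 0.072 without IKK2 KO library b at 0 min or 0.065 without library a at 90 min) and by 0.15 ± 0.02 in the WT line (edgeR adjusted p = 5.2e-06).

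Between untreated lines the same 37 genes differed widely, as most genes did. In p65 KO relative to WT cells 15 were higher and 16 lower (39.8% and 41.1% of all genes), in IKK2 KO relative to WT cells 13 were higher and 19 lower (35.9% and 38.4%), and in IKK2 KO relative to p65 KO cells 12 were higher and 20 lower (35.5% and 36.9%). Of the 11 sugar precursor enzymes, 7 were higher and 1 lower in p65 KO than in WT cells, and 6 higher and 4 lower in IKK2 KO than in WT cells. Spp1, a secreted Cd44 ligand, averaged 90.9 CPM in p65 KO, 1170 CPM in IKK2 KO and 1790 CPM in WT cells, a p65 KO to WT difference of −4.29 ± 0.03 (edgeR adjusted p = 9.2e-52). Ezr, which like Msn ties Cd44 to actin, averaged 65.9 CPM in p65 KO, 258 CPM in IKK2 KO and 93.1 CPM in WT cells, an IKK2 KO to WT difference of 1.47 ± 0.04 (edgeR adjusted p = 2.5e-33). On the scale of CPM per kb, untreated Has2 stood at 19.3 in p65 KO, 12.1 in IKK2 KO and 4.77 in WT cells, below Ugdh (26.3, 25.1 and 28.6 CPM per kb) and Cd44 (84.1, 57.8 and 85.7 CPM per kb) in each line.

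**Figure D4:**
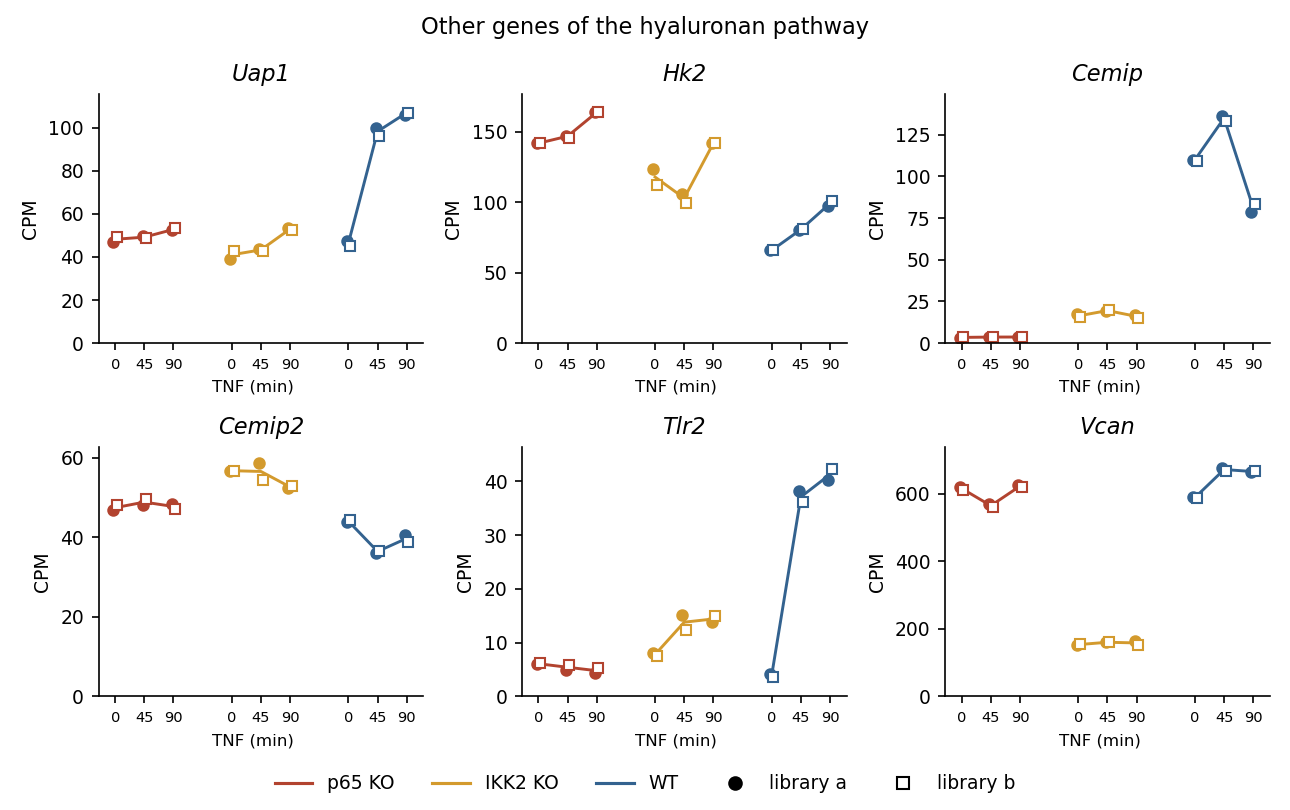
Levels (CPM) of Uap1, Hk2, Cemip, Cemip2, Tlr2 and Vcan at 0, 45 and 90 min of TNFα in the p65 KO, IKK2 KO and WT lines; circles are library a, squares library b, and lines join the means of 2 libraries. Uap1 and Tlr2 are high in WT cells at 45 and 90 min, and Cemip stays under 4 CPM in the p65 KO line.

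A fall of at least 2-fold at 45 min followed by a rise of at least 2-fold by 90 min, both with an adjusted p under 0.05, was shared by 53 of the 16322 genes in the WT line (0.325%, Has2 included by its choice). Both steps use the WT libraries at 45 min, so an error there moves both. By the smaller of the 2 changes Has2 ranked 6 of the 53, and the genes above it had at most 6 counts in the WT libraries at 45 min. Of the 32 that reached a mean of 2 CPM in some group it ranked 1. Has2 was chosen by this same fall and rebound, so both ranks follow from its choice and only describe it. Among the 10 named genes with the largest such changes was Grhl1, an epithelial transcription factor, with 3.71, 1.22 and 4.34 CPM at 0, 45 and 90 min in the WT line. Dusp2, a MAP kinase phosphatase, had 18.4, 6.84 and 18.4 CPM, and Id4, an inhibitor of helix-loop-helix factors, had 1.69, 0.269 and 0.786 CPM. Has2 itself, Mroh4, Fibcd1, Fgf1, Nxph3, Fgf18 and Snai3 completed the 10. Has2 apart, each of these was at under 1.5 CPM in every WT group.

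The same shape of 2-fold size was met by 2 genes in the p65 KO line and 32 in the IKK2 KO line. With no demand on size, 40, 728 and 675 genes fell and then rose in the p65 KO, IKK2 KO and WT lines. Of the 53 genes of the WT line, 0 fell and rose at any size in the p65 KO line, where 0.245% of all genes did. In the IKK2 KO line 10 did, Has2 included by its choice, which is 18.9% of the 53, beside 4.46% of all genes. These 10 are 1.37% of the 728, where the 53 are 0.325% of all genes. With so low a share over all genes, the count of 0 in the p65 KO line says nothing particular about the 53.

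Over the 9 group means, 35 of 13021 genes had a Pearson r of at least 0.9 with Has2 on the log2 scale, and 23 had one of −0.9 or lower. The genes share the libraries, and the order is given as a description. Grk2, a kinase that turns off G protein-coupled receptors, was the most alike (r = 0.988), and spanned a far narrower range than Has2, with its highest mean of 94.3 CPM in p65 KO cells at 45 min and its lowest of 71.2 CPM in WT cells at 45 min. Csnk1e (r = 0.954), Inip, Zbtb34, Wrap53, Stx1a, Tpd52, Pdia5, Cmtm6 and Phf23 (r = 0.937) followed. The most opposite were Mrnip (r = −0.963), Crocc, Sesn2 and Necab3. Sesn2, a stress-induced regulator of growth signalling, had 9.94, 10.3 and 12.5 CPM at 0, 45 and 90 min in the p65 KO line, 11.7, 17.8 and 11.6 CPM in the IKK2 KO line, and 14.8, 27.5 and 15.3 CPM in the WT line.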

How the data were processed

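Total RNA of 18 samples went through a directional kit and was sequenced from both ends (76 bases each, NextSeq), per the labels' protocols. The submitters' processing notes name FastQC 0.11.8, Trimmomatic, HISAT2, featureCounts (Subread 1.6.2), edgeR 3.26.4 and GRCm38. The authors deposited expected counts per gene, of which 31.814% of the non-zero values were fractional; these were rounded. The sources used here do not give the strand setting, the annotation release or how reads with several matches were treated. Gene positions, exon lengths and overlaps are from GENCODE M21, and all 55536 IDs matched.

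Genes were kept by filterByExpr by group (minimum count 10), leaving 16322 and losing 0.0601% of counts. Libraries were scaled by TMM, and edgeR 4.0.16 (R 4.3.3) was fitted by quasi-likelihood, robustly, with 1 coefficient per group over all 18 libraries, with 18 contrasts. P-values were adjusted by Benjamini-Hochberg over all genes of a contrast, at a threshold of 0.05. Residual degrees of freedom were 9, and the fit added a median of 32.2 prior degrees of freedom borrowed across genes. The standard error is that of the fitted coefficient. CPM use the scaled library sizes. For scarce genes, ratios of summed counts carry exact 95% intervals that cover counting error only. The fit was also run on simulated counts with a dispersion (spread beyond counting noise) of 0.0025. The common dispersion of these libraries was 0.000373, so that run does not measure the error rates here. Alternatives were other scalings and filters, DESeq2 1.42.0, fits of the libraries compared and each library left out. No 2 libraries of a group agreed within counting noise: chi-square divided by its degrees of freedom lay between 1.13 and 4.27.

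The members and gene lists were chosen with earlier results of these data known. All 7 members and Has2os were named, and of the check genes Rela, Ikbkb and Nfkbia. Up to 4 genes per list and comparison were taken by size of change among those called with at least 2 CPM. The text gives some of these, chosen after their values were seen. The 10 genes most like Has2, the 5 most opposite and the 10 largest falls and rebounds in WT were named, leaving out predicted names and 1 gene that is not reported here. Has2 has no p because its response, measured from the untreated libraries too, led to its choice; its planned test between untreated lines is therefore not reported.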

Additional observations from a re-analysis of the deposited data

Results flagged for a closer look

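The Has2 change at 45 min differed in direction between the p65 KO and WT lines, by 2.81 on the log2 scale: both p65 KO libraries at 45 min lay above both at 0 min, and both WT libraries lay below. This difference was not tested, since the response of Has2 led to its choice.

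The Ugdh response differed between the p65 KO and WT lines by a test of the difference itself, by 0.37 at 45 min and by −0.45 from 45 to 90 min (log2, edgeR adjusted p = 7.1e-08 and 6.4e-10). It differed between the IKK2 KO and WT lines in the same way, by 0.36 and −0.42 (edgeR adjusted p = 4.6e-07 and 1.2e-08). The Cd44 response differed between the p65 KO and WT lines by −0.22 at 90 min relative to 0 min and by −0.24 from 45 to 90 min (edgeR adjusted p = 2.2e-05 and 4.5e-06).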

How the results depend on the processing

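The Has2 changes kept their direction under every alternative run, and leaving out each library gave, at 45 min, 0.19 to 0.22 in the p65 KO line, −0.87 to −0.70 in the IKK2 KO line and −2.76 to −2.48 in the WT line. Counts of members other than Has2 called after TNFα moved in 3 comparisons. At 90 min relative to 0 min in the p65 KO line the count went to 1 with only the libraries compared. At 45 min in the IKK2 KO line the count of 1 became 0 with only the libraries compared and in DESeq2, and 0 to 1 over fits without 1 library. From 45 to 90 min in the IKK2 KO line 2 became 1 in DESeq2 and 1 to 2 without 1 library. Untreated, 1 of the other 6 members was called higher and 3 lower in p65 KO than WT cells (39.8% and 41.1% of all genes). In IKK2 KO relative to WT cells 1 was higher and 3 lower (35.9% and 38.4%). Has1 was among them both times, having passed the filter on low counts only through IKK2 KO libraries. Over fits without 1 library, the p65 KO to WT difference ran from −4.74 to −1.66 for Has1 and −0.15 to −0.08 for Ugdh. A filter of 2 CPM drops Has1 and Hyal1. The 53 genes with a fall and rebound in WT became 32 with that filter, 26 in DESeq2 and 46 to 54 without 1 library. Of the 10 genes most like Has2, 0 stayed by Spearman rho, 5 by r over 18 libraries and 6 to 10 without 1 library.

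Vcan, 0.06 higher in untreated p65 KO than WT cells, turned to −0.03 with upper-quartile scaling and −0.01 with a 2 CPM filter. DESeq2 called 139 to 11787 genes per comparison, against 271 to 13196 in edgeR, and the p65 KO count at 45 min ran from 97 (without library a at 0 min) to 533 (only the libraries compared). Without 1 library the counts over all genes also went to as few as 452 of 1058 (p65 KO, 90 against 0 min), 164 of 445 (p65 KO, 90 against 45 min), 901 of 1430 (IKK2 KO, 45 against 0 min), 391 of 732 (IKK2 KO, 90 against 0 min) and 581 of 880 (p65 KO minus WT, 90 against 0 min). Of 47 pathway calls after TNFα, 15 were lost in DESeq2 and 20 in at least 1 fit without a library. The causes were not tested. No paired analysis was possible because the columns carry no replicate number. Has1, Has3, Hyal1 and Has2os are limited by counts of at most 43 per library.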
